A study of Rattus norvegicus with 192 samples.

Results

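The olfactory bulb of rats was compared 6 h after they breathed phosphine (PH3) or air. The members of the comparison were the arrays titled for olfactory bulb, PH3 and 6 h, which are 4, and those titled for olfactory bulb, Air and 6 h, which are also 4, out of 33 olfactory bulb arrays and 192 arrays in the series. Both groups were male Sprague-Dawley rats in a whole-body chamber. The PH3 group received 660 ppm for 25 min, a product of 16500 ppm×min that the labels call a medium exposure, and the Air group received air. Tissue of both groups was taken under ketamine and xylazine, and age and genotype are not given beyond the strain. The PH3 rats were Rat381, Rat387, Rat391 and Rat522, and the Air rats were Rat382, Rat388, Rat394 and Rat526. Rat522 and Rat526 gave the olfactory bulb alone, and the other 6 rats gave 6 tissues each. Every value below is a log2 intensity from a 3′ expression array, every difference is PH3 minus Air on that scale, and all 31042 probe sets that are not array controls were tested.

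The olfactory bulb is the first relay of smell in the brain. Axons of olfactory sensory neurons cross the bone of the nasal roof and end on mitral and tufted cells, whose output is shaped by granule and periglomerular interneurons that use GABA, and ensheathing glia wrap the incoming axons. Phosphine, used to fumigate stored grain, inhibits the last enzyme of the mitochondrial respiratory chain, cytochrome c oxidase, and it raises the load of reactive oxygen in cells. Because it is inhaled, the gas meets the nasal passages before it reaches the blood.

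The marker genes of the tissue were those of olfactory bulb. As deposited, the mean over all olfactory bulb arrays was 11.83 for Cdhr1, a cadherin of mitral and tufted cells, against 4.31 on the brain stem arrays of the same series. Synpr, a synaptic vesicle protein of granule cells, had 11.82 against 8.73. The hindbrain patterning gene Hoxa5 had 3.30 in olfactory bulb and 9.58 in brain stem. All 8 arrays of 6 h correlated best with the olfactory bulb mean among the 6 tissues. Tbx21 and Eomes, further mitral cell markers, are not analysed here.

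The arrays of 2 PH3 rats and 1 Air rat carried transcripts of other tissues. The array of PH3 Rat391 had a mean of 11.84 over 16 genes that liver makes at high levels, against a median of 3.48 over the 33 olfactory bulb arrays. Fgb, the fibrinogen beta chain, read 11.96 on it and Alb, serum albumin, read 14.01. Air Rat526 carried the same genes at a mean of 7.79, and the other 6 arrays of the comparison lay between 3.32 and 3.78.

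The array of PH3 Rat381 carried nasal transcripts. Over 11 genes of nasal epithelium its mean was 8.35, against a median of 4.32 over the olfactory bulb arrays. Cyp2g1, a cytochrome P450 of the olfactory mucosa, read 12.88 on it, and Scgb1c1, a secretoglobin of the nose, read 13.34. Over 7 genes of olfactory sensory neurons, such as the olfactory marker protein Omp and the odorant channel subunit Cnga2, the Rat381 mean was 9.25, and the other 7 arrays lay between 6.02 and 7.004. Bone genes were high on it too, with a mean of 8.33 over 7 genes and 8.90 for Ibsp, the bone sialoprotein. The remaining 7 arrays had bone means from 3.79 to 5.28.

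An array was treated as standing apart where its liver or nasal mean lay over 2 log2 units above the median, which held for Rat381, Rat391 and Rat526 at 6 h and for 1 Air array each of 3 h and 24 h. The rule, and the liver and bone lists, were chosen after the arrays were seen. Rat381 lay over 2 log2 units above the median of the other olfactory bulb arrays at 1.56% of the probe sets and Rat391 at 1.34%, whereas Rat526 did so at 81 probe sets and the other 5 arrays of 6 h at 3 to 20. Liver genes were also high on some arrays of other tissues. Their list mean lay over 2 log2 units above the tissue median on 5 of 32 brain stem, 3 of 32 heart, 3 of 32 kidney and 1 of 32 lung arrays. The highest list mean was 11.89 in heart, and 11.04 in kidney, on the array of Rat387. Bone genes were high on 2 of the 4 PH3 arrays of 1 h, at 6.79 and 7.74, and on PH3 Rat512 of 3 h, at 6.11, where the neutrophil and red cell means also lay 2.84 and 2.22 above the median. The rule did not take these 3 arrays, and they enter the effects at 1 and 3 h. Results below are given with all 8 arrays and again without the arrays that stand apart, which leaves 2 PH3 and 3 Air rats at 6 h.

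**Figure D1:**
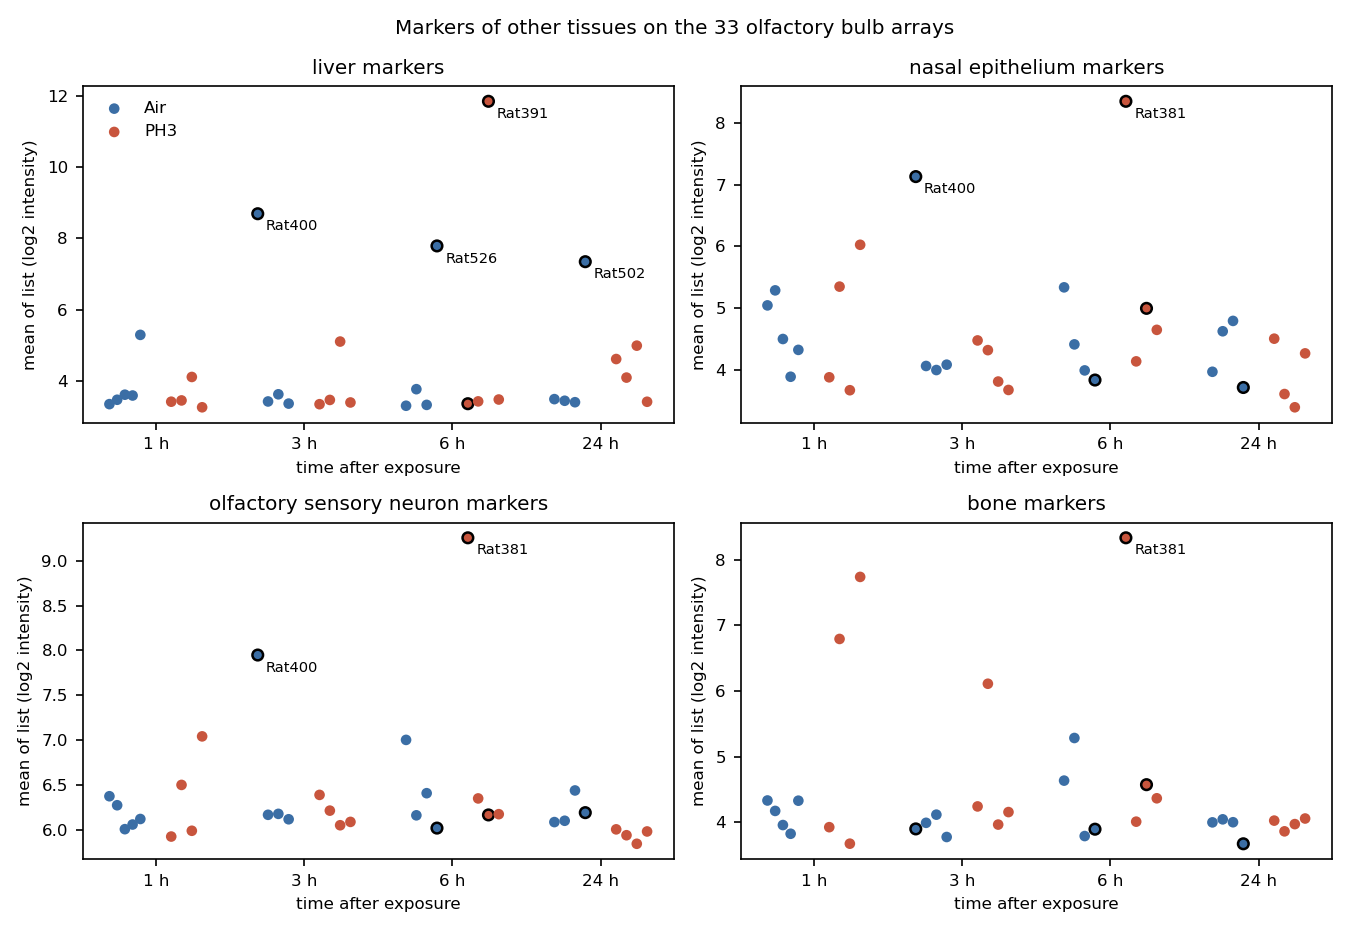
Mean log2 intensity of the liver, nasal epithelium, olfactory sensory neuron and bone lists on each of the 33 olfactory bulb arrays (y axis), by time after exposure (x axis) and exposure (blue Air, red PH3); each point is 1 rat, and black rings mark the arrays that stand apart. Rat391 is highest for liver genes at 11.84, and Rat381 is highest for the other 3 lists.

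No probe set passed the test at an adjusted p under 0.05 in limma (0% called), where the smallest adjusted p was 0.446. At an unadjusted p under 0.05 there were 3055 probe sets, 9.84% of those tested, 1336 higher (4.3%) and 1719 lower (5.54%) in PH3. Limma again called 0 without the arrays that stand apart, and 804 probe sets had an unadjusted p under 0.05. Without Rat381 alone that number was 1470, and without Rat387 alone it was 5363, with 8 probe sets called. Without Rat522, which like Rat387 had liver and nasal list means within 2 log2 units of the median, it was 4750. With the Air arrays of all times as controls 233 were called, and 0 once the arrays that stand apart were left out. Of the 31042 probe sets, 285 differed by over 1 log2 unit with all arrays and 38 did so without the arrays that stand apart.

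**Figure D2:**
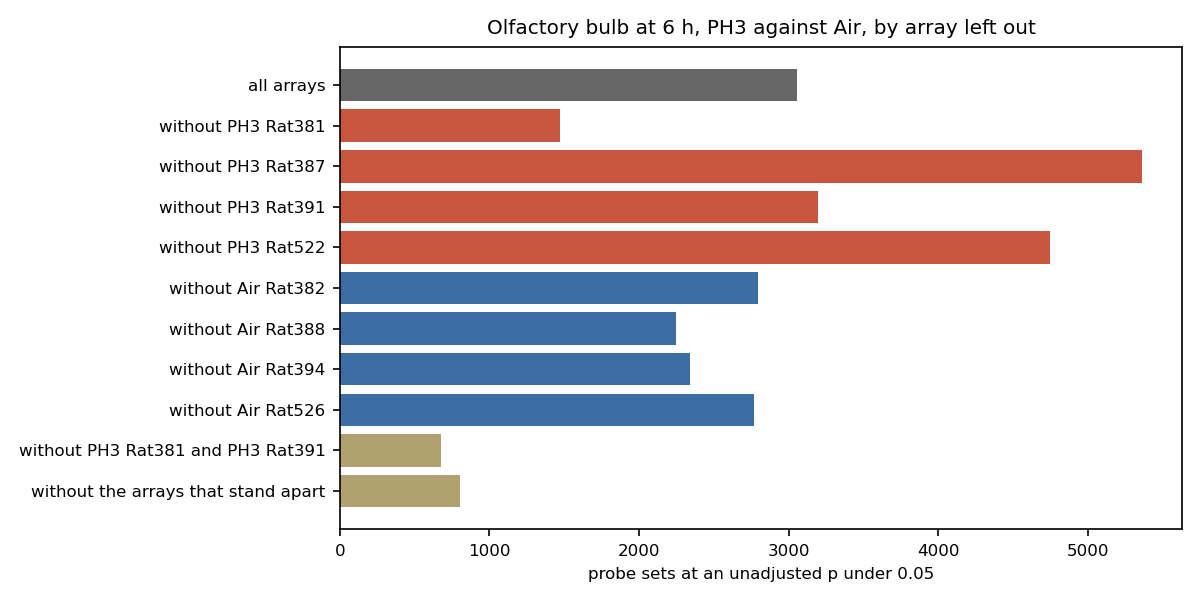
Number of the 31042 probe sets at an unadjusted p under 0.05 for PH3 against Air at 6 h (x axis) with all arrays and with the named arrays left out (y axis; red PH3 rats, blue Air rats, tan several arrays). The number ranges from 674 without Rat381 and Rat391 to 5363 without Rat387.

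With 1 probe set per gene, the brightest, 437 of 13438 genes (3.25%) had 4 PH3 arrays entirely beyond the 4 Air arrays, 183 above (1.36%) and 254 below (1.89%). None of them passed the adjusted test, so the values that follow describe the 8 rats. Over all 13438 genes 44.6% were higher in PH3 with all arrays, the share to set beside the counts of higher and lower list members below.

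Among the genes whose PH3 rats all lay above the Air rats, Sat1 had the smallest p. Sat1 encodes the enzyme that acetylates spermidine and spermine and so starts their breakdown. It read 10.61, 10.24, 10.63 and 10.71 in PH3 Rat381, Rat387, Rat391 and Rat522, and 10.05, 10.08, 9.88 and 10.02 in Air Rat382, Rat388, Rat394 and Rat526. The lowest PH3 rat, Rat387, lay 0.16 above the highest Air rat. The difference was 0.54 ± 0.118 (SE), with an adjusted p of 0.473, and 0.47 without the arrays that stand apart.

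The genes next in order of p were Tnfrsf1a, Sigirr and Creg1. Tnfrsf1a, the main receptor of tumour necrosis factor, read 7.81, 7.58, 7.87 and 7.67 in the PH3 rats and 7.22, 7.26, 7.25 and 7.27 in the Air rats, in the same order of rats. All 4 Air values were within 0.05 of each other, and every PH3 rat was above them. The difference was 0.48 ± 0.107, or 0.38 without the arrays that stand apart. Sigirr, a receptor of the interleukin-1 family that damps Toll-like and interleukin-1 signalling, read 5.75, 4.42, 5.38 and 4.70 in PH3 and 4.23, 3.91, 3.995 and 4.12 in Air. Rat381 and Rat391 were the highest, and the difference went from 1.00 ± 0.226 to 0.51 without the arrays that stand apart. The adjusted p of both genes was 0.473.

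Creg1, a secreted glycoprotein of lysosomes, was 0.44 ± 0.102 higher in PH3, or 0.26 without the arrays that stand apart. Dicer1, the nuclease that cuts microRNA precursors, was 0.34 ± 0.0853 higher, or 0.27, while its other, dimmer probe set differed by 0.02. Repin1, a zinc finger protein, differed by 0.49 ± 0.117, and by 0.50 without the arrays that stand apart. It was dim, with PH3 rats from 3.41 to 3.81 and Air rats from 2.89 to 3.26, and its second probe set differed by -0.07. For scale, 23 nonspecific control sets of the array ran from 2.34 to 5.92 with a median of 2.67. Of the probe sets tested, 56.3% had a mean at or below the highest of these. Sigirr above, and Rorb, Fezf2, Vwc2, B3gnt5 and Csf3r below, are among the genes with all their values in that range.

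Several genes with large differences had their highest values in Rat381 or Rat391. Dcxr, a reductase of sugars and carbonyls, read 8.15 in Rat381 and 8.28 in Rat391 but 6.96 in Rat387 and 6.996 in Rat522, against 6.58 to 6.89 in Air. Its difference went from 0.87 ± 0.209 to 0.30. Cyp3a9, a cytochrome P450, read 9.94 in Rat381, 6.88 to 7.35 in the other PH3 rats and 6.04 to 6.53 in the Air rats, so its groups did not overlap, and the difference went from 1.63 ± 0.491 to 0.80. Chdh, which oxidises choline to betaine, read 7.37 in Rat391 and 4.83 to 5.57 in the other PH3 rats, with a difference of 1.17 ± 0.333, or 0.48. Lox, which cross-links collagen, and Mgp, the matrix protein that restrains calcification, read 8.37 and 11.83 in Rat381, and their differences went from 1.06 ± 0.394 to 0.31 and from 1.29 ± 0.543 to 0.42. The part of the liver and nasal transcripts in these differences was not tested.

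Among the genes whose PH3 rats all lay below the Air rats, Rorb, a nuclear receptor of the retinoid-related orphan group, had the smallest p with the brightest probe set of each gene. A dimmer probe set of Tango2, with its PH3 rats also below the Air rats, had a smaller p. Among all probe sets with a named gene, the smallest p was that of a probe set of Plxnc1, given after its values were seen. It differed by -0.67, with an adjusted p of 0.446 in limma, and a second Plxnc1 probe set by -0.53. Against the Air arrays of all times, without the arrays that stand apart, the 2 Plxnc1 probe sets differed by -0.44 and -0.28. Rorb read 3.14, 3.51, 3.21 and 3.43 in PH3 and 3.73, 3.93, 3.86 and 3.73 in Air. All of these values are low on the array, Rat381 and Rat391 gave the lowest, and the difference was -0.49 ± 0.114 (adjusted p 0.473), or -0.37 without the arrays that stand apart. Klhl4, a kelch protein, read 4.69, 5.60, 5.72 and 5.65 in PH3 and 5.86 to 6.23 in Air, a difference of -0.71 ± 0.164, or -0.46. Its lowest value was again that of Rat381.

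Rorb is also on the list of cortical pyramidal neuron markers. All 7 measured markers on it were lower, with a median of -0.33, 1 of them, Rorb, at an unadjusted p under 0.05. Over all genes 10.9% had such a p. Groups did not overlap for Rorb and Fezf2, beside 3.25% of all genes. Without the arrays that stand apart 2 of the 7 were higher and the median was -0.10. Fezf2, a transcription factor of deep-layer projection neurons, read 3.42, 3.69, 3.41 and 3.39 in PH3 and 4.17, 3.96, 3.97 and 3.82 in Air, a difference of -0.51 ± 0.265, or -0.50.

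Vwc2, a secreted antagonist of bone morphogenetic proteins in the brain, read 4.42, 5.14, 4.75 and 4.64 in PH3 and 5.19, 5.71, 5.72 and 5.16 in Air. The groups were 0.02 apart at their nearest rats, and the difference was -0.71 ± 0.187, or -0.65 without the arrays that stand apart. Tmem198, a membrane protein, differed by -0.60 ± 0.151, or -0.38, and Tnr, the extracellular matrix protein tenascin-R, by -0.62 ± 0.182, or -0.42. Rgcc, a regulator of the cell cycle, went from -0.52 ± 0.13 to -0.19, and its dimmer probe set differed by -0.13. Syt13, a synaptotagmin, went from -0.69 ± 0.247 to -0.20. Smaller differences that kept most of their size were those of Nkain1 at -0.34 ± 0.0876, Zfp710 at -0.44 ± 0.115, B3gnt5 at -0.43 ± 0.111, Tex10 at -0.33 ± 0.0854 and Tmem141 at -0.30 ± 0.0761. Without the arrays that stand apart these were -0.29, -0.40, -0.44, -0.29 and -0.22. B3gnt5 was dim, from 3.08 to 3.24 in PH3 and from 3.37 to 3.80 in Air.

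**Figure D3:**
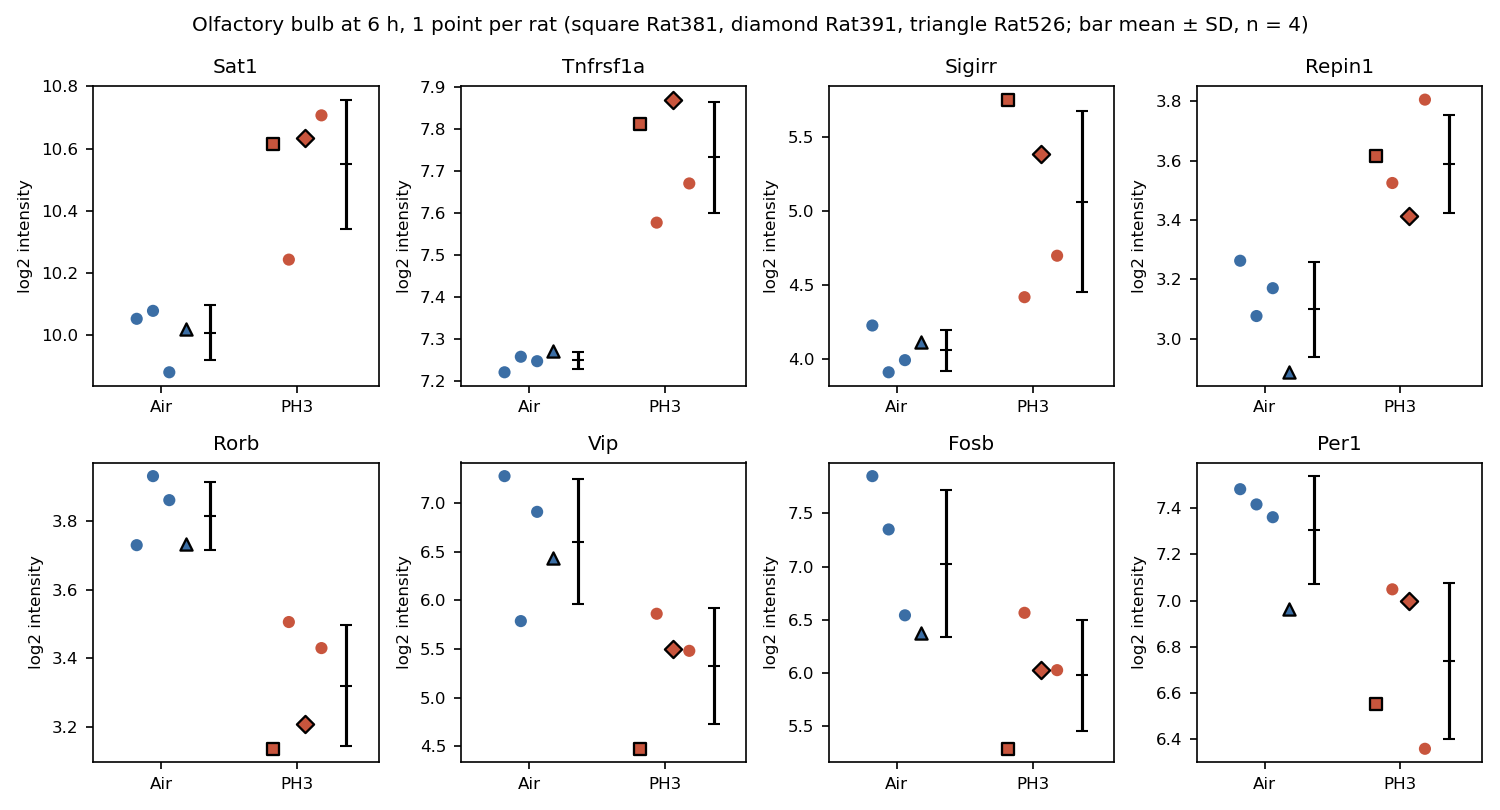
Log2 intensity (y axis) of 8 genes in the olfactory bulb at 6 h, 1 point per rat, in the Air and PH3 groups (x axis), with mean ± SD of 4 rats beside the points; squares, diamonds and triangles mark Rat381, Rat391 and Rat526. PH3 and Air rats do not overlap for Sat1, Tnfrsf1a, Sigirr, Repin1 and Rorb, and overlap for Vip, Fosb and Per1.

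The stress genes that phosphine could call on were read as lists. Of 14 measured enzymes and regulators that answer to NRF2, the factor of the antioxidant response, 12 were higher and 2 lower, 0 were called, and 4 had an unadjusted p under 0.05, all 4 of them higher. Over all 13438 genes 10.9% had such a p, 5.06% higher and 5.86% lower, and 2.23% had one without the arrays that stand apart. The median difference was 0.17, against -0.02 over all genes, and 0.03 without the arrays that stand apart. Osgin1, a growth inhibitor induced by oxidative stress, read 6.35, 5.15, 7.14 and 5.74 in PH3 and 5.22, 5.01, 5.34 and 4.97 in Air. Rat381 and Rat391 were the highest and Rat387 lay among the Air rats, and the difference of 0.96 ± 0.247 was 0.26 without the arrays that stand apart. Hmox1, heme oxygenase 1, read 7.71 in Rat381, 6.35 to 6.53 in the other PH3 rats and 5.80 to 6.15 in the Air rats, a difference of 0.70 ± 0.188 that became 0.24. In the fit of all arrays with liver and nasal list means as covariates the differences were 0.53 for Hmox1, 0.73 for Osgin1 and 0.60 for Dcxr, and the list median was 0.12.

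The 15 chaperones of the endoplasmic reticulum had a median difference of 0.25, with 13 higher, 3 of them at an unadjusted p under 0.05 (5.06% over all genes). The median was -0.02 and 5 were higher without the arrays that stand apart, and it was 0.15 with the covariates. Dnajc3, a cochaperone, read 8.56 in Rat381 and 8.59 in Rat391 but 7.09 and 7.23 in Rat387 and Rat522, against 7.07 to 7.27 in Air, and its difference went from 0.72 ± 0.227 to -0.0049, or 0.46 with the covariates. These are the arrays with high nasal and liver list means, and the part of those tissues in the difference was not tested.

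Of the 24 measured genes of the integrated stress response and amino acid supply, 17 were higher, with a median of 0.11 that became 0.03. Ppp1r15a, which ends the block on translation, differed by 0.40 ± 0.155, or 0.18, and the pseudokinase Trib3 by 0.45 ± 0.182, or 0.08. The 12 cytosolic heat shock proteins had a median of -0.02 both ways. Hspb1, a small heat shock protein, read 8.96 in Rat381 and 5.73 to 5.95 in the other PH3 rats, against 5.41 to 5.77 in Air. Of 14 catalases, superoxide dismutases and peroxidases 9 were higher, with a median of 0.04 that became 0.00. Gpx1, a glutathione peroxidase, read 12.20 in Rat391 and 10.93 to 11.19 in the other PH3 rats, with Air rats from 10.74 to 11.20.

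The target of the gas itself showed small differences. The 11 measured nuclear subunits of cytochrome c oxidase had differences from -0.24 to 0.25, 4 higher and 7 lower, with 0 at an unadjusted p under 0.05 and a median of -0.04, or 0.02 without the arrays that stand apart. Cox7a1, the heart and muscle form of a small subunit, differed by -0.24 ± 0.12, and Cox6a2, another muscle form, by 0.25 ± 0.206, or 0.00 without those arrays. All 20 other respiratory chain and ATP synthase subunits measured were lower in PH3, by at most 0.26, with a median of -0.09. Without the arrays that stand apart 5 of the 20 were higher and the median was -0.03. Uqcrfs1, the iron-sulfur subunit of complex III, read 10.49, 11.06, 11.19 and 10.89 in PH3 and 11.13 to 11.23 in Air, a difference of -0.26 ± 0.0928, or -0.19. The 22 genes of hypoxia and glycolysis had a median of -0.07, with 20 lower, and 0.01 without the arrays that stand apart, with 12 higher.

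Genes of the metal response gave 2 higher and 3 lower of 5 measured, with a median of -0.00, or 0.03 without the arrays that stand apart. At an unadjusted p under 0.05, 2 were higher and 1 lower, beside 5.06% and 5.86% over all genes. Without those arrays 0 had such a p. Mt1 differed by 0.37 at low levels, from 3.31 to 4.21 in PH3 and from 3.12 to 3.57 in Air. Mt2A, a metallothionein that binds zinc and copper, read 10.98, 11.22, 11.39 and 11.32 in PH3 and 10.99, 10.80, 10.87 and 10.83 in Air. Rat381 lay among the Air rats and the other PH3 rats lay above them, and the difference was 0.36 ± 0.153, or 0.39 without the arrays that stand apart.

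Of 24 measured genes of acute inflammation, 18 were higher, 4 of them at an unadjusted p under 0.05 (5.06% over all genes), and the median was 0.10, or 0.02 without the arrays that stand apart. Icam1, the adhesion molecule that holds leukocytes on endothelium, read 6.80, 6.204, 6.92 and 6.62 in PH3 and 6.08, 5.84, 6.02 and 6.27 in Air. Rat387 was the single PH3 rat within the Air range, and the difference was 0.59 ± 0.184, or 0.43. Lcn2, a secreted carrier of siderophores, read 9.48 in Rat381, where nasal genes were high, and its difference went from 1.28 ± 0.524 to 0.62. Vcam1, a second adhesion molecule, differed by -0.31 ± 0.117, or -0.04. The 17 interferon response genes had a median of 0.01, with 0 at an unadjusted p under 0.05.

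Immediate early genes, which neurons switch on when they fire, gave 8 higher and 15 lower of 23 measured, where 44.6% of all genes were higher. The list median was -0.12, or -0.09 without the arrays that stand apart. At an unadjusted p under 0.05, 4 were lower and 1 higher, beside 5.86% and 5.06% over all genes. Fosb, a partner in the AP-1 factor, read 5.29, 6.56, 6.03 and 6.03 in PH3 and 7.85, 7.35, 6.54 and 6.37 in Air. Rat387 lay just above the lower pair of Air rats, and the difference was -1.05 ± 0.358, or -0.95. Fosl2, another AP-1 partner, differed by -0.60 ± 0.167, and by -0.60 again without those arrays. Nr4a2, an orphan nuclear receptor that dopamine neurons need, read 5.84, 6.43, 5.98 and 6.06 in PH3 and 7.14, 6.84, 6.53 and 6.03 in Air, a difference of -0.56 ± 0.202, or -0.59.

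The circadian clock list gave 1 higher and 16 lower of 17 measured, 4 of the lower at an unadjusted p under 0.05 (5.86% over all genes), with a median of -0.18. Leaving out the arrays that stand apart, 4 were higher and the median was -0.10. Per1, a repressor of the clock that light, cyclic AMP and glucocorticoid also induce, read 6.55, 7.05, 6.996 and 6.36 in PH3 and 7.48, 7.42, 7.36 and 6.97 in Air. The lowest Air rat, Rat526, lay within the PH3 range, and the difference of -0.57 ± 0.219 was -0.72 without the arrays that stand apart. The clock time at which each rat was sampled is not given in the sources used here.

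Glucocorticoid targets gave 11 higher and 10 lower of 21 measured, from -0.57 to 0.89, with a median of 0.02, or -0.07 without the arrays that stand apart. At an unadjusted p under 0.05 there were 6 of the 21, 3 higher and 3 lower, beside 10.9% of all genes. Without those arrays 2 had such a p. Groups did not overlap for 1 of the 21, beside 3.25% of all genes. The highest member was Sult1a1, at 0.89, and at 0.93 against the Air arrays of all times without the arrays that stand apart. The other members with larger differences given below are all lower ones. Fkbp5, the cochaperone of the glucocorticoid receptor, differed by 0.05 ± 0.289. Ddit4, an inhibitor of the growth kinase mTORC1, read 9.77, 10.13, 9.94 and 9.53 in PH3 and 10.26, 10.36, 10.70 and 10.11 in Air, a difference of -0.51 ± 0.19, or -0.61. Sgk1, a kinase of salt and stress responses, differed by -0.41 ± 0.228, or -0.52, and Arrdc2, an arrestin-domain protein, by -0.40 ± 0.146, or -0.31. Pdk4, which shuts pyruvate out of the mitochondrion, differed by 0.11 ± 0.182.

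Genes of cholesterol synthesis gave 2 higher and 11 lower of 13 measured, with a median of -0.13, and 0 of 13 were higher without the arrays that stand apart, where the median was -0.22. At an unadjusted p under 0.05, 4 were lower (5.86% over all genes), and 2 without those arrays (2.23% over all genes in either direction). Groups did not overlap for 2 of the 13, beside 3.25% of all genes. The list median was -0.20 at 1 h, -0.01 at 3 h and -0.22 at 24 h, so a lower median was not particular to 6 h. Sqle, squalene epoxidase, read 7.86, 8.38, 8.35 and 8.18 in PH3 and 8.44, 8.67, 8.62 and 8.39 in Air. The groups were 0.02 apart at Rat387 and Rat526, and the difference was -0.34 ± 0.11, or -0.30. Idi1, an isomerase earlier in the pathway, read 8.15 to 8.54 in PH3 and 8.51 to 8.80 in Air, a difference of -0.33 ± 0.122, or -0.28.

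Genes of nerve signalling were read as 4 lists, with 0 called. All 12 GABA genes measured were lower, with a median of -0.25, and 7 of the 12 were higher without those arrays, where the median was 0.10. Of 16 glutamate receptor genes 15 were lower (median -0.24), of 15 potassium channel genes 14 (median -0.29), and of 14 cholinergic genes 12 (median -0.14). Without the arrays that stand apart these 3 medians were -0.02, -0.02 and 0.03. With all arrays an unadjusted p under 0.05 was reached, in the lower direction (5.86% over all genes), by 3 of the GABA, 3 of the glutamate receptor, 3 of the potassium channel and 1 of the cholinergic genes, and by none of the 4 lists' genes without the arrays that stand apart.

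Gabra2, the alpha 2 subunit of the GABA-A receptor, kept its difference. It read 7.29, 8.33, 7.44 and 7.44 in PH3 and 8.58, 8.81, 8.40 and 7.73 in Air, where Rat387 lay within the Air range, and the difference was -0.76 ± 0.302, or -0.71. Gabrb2, the beta 2 subunit, differed by -0.66 ± 0.278, or -0.44. Kcnd2, the A-type potassium channel Kv4.2, read 9.61 to 10.23 in PH3 and 10.25 to 10.57 in Air, a difference of -0.37 ± 0.148, or -0.31. The glutamate receptor subunit Gria1 and the muscarinic receptor Chrm1 went from -0.36 ± 0.149 to -0.06 and from -0.45 ± 0.224 to -0.16. Chrna7, a nicotinic receptor subunit, differed by -0.33 ± 0.144, or -0.29.

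Vip, the vasoactive intestinal peptide of a set of bulb interneurons, had the most negative difference of the genes named here. It read 4.47, 5.86, 5.50 and 5.48 in PH3 and 7.28, 5.79, 6.91 and 6.44 in Air. Rat387 lay above the lowest Air rat, Rat388, and the other PH3 rats lay below every Air rat. The difference was -1.27 ± 0.35 (adjusted p 0.473), or -0.99 without the arrays that stand apart. Tac3, which encodes neurokinin B, differed by -0.65 ± 0.212, or -0.39. The 15 neuropeptides had a median of -0.22, with 12 lower, and 0.01 without those arrays.

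**Figure D4:**
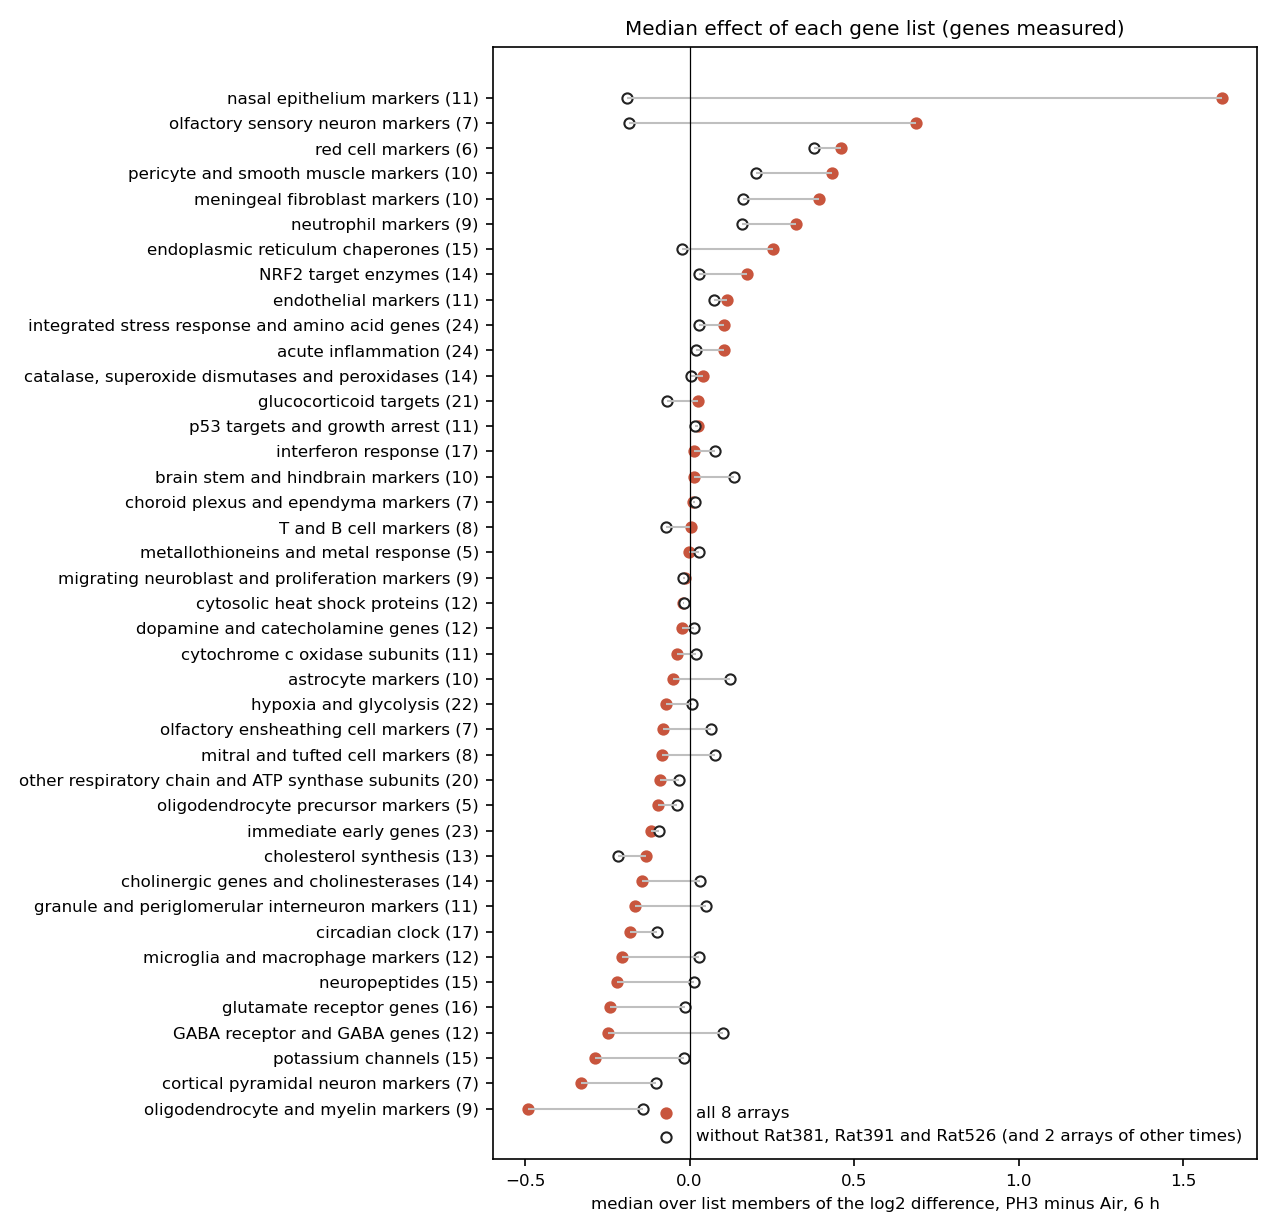
Median over the measured members of each of 41 gene lists of the log2 difference, PH3 minus Air at 6 h (x axis), with all 8 arrays (filled red) and without the arrays that stand apart (open), 1 list per line with its number of measured genes. The nasal list goes from 1.62 to -0.19, the myelin list from -0.49 to -0.14, and the cholesterol list from -0.13 to -0.22.

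In a piece of tissue, fewer cells of a type and less RNA per cell cannot be told apart, and this holds for every cell type list. Against the olfactory bulb median, the granule list mean was -0.54 in Rat381, 0.11 in Rat387, -0.20 in Rat391 and 0.06 in Rat522. The myelin list mean was -1.07, 0.02, -0.69 and -0.79 in the same order. The part of RNA of other tissues in the cell type lists was not tested. Markers of granule and periglomerular interneurons were lower in 11 of 11 (median -0.16, or 0.05 without the arrays that stand apart, with 6 higher). Of 8 mitral and tufted cell markers 3 were higher (median -0.08, or 0.08). Nmb, the neuromedin B of tufted cells, read 8.26 in Rat381 and 9.14 to 9.29 in the other PH3 rats, against 9.14 to 9.55 in Air. All 9 oligodendrocyte and myelin markers were lower, with a median of -0.49, or -0.14. Opalin and Mog, proteins of mature myelin, read 4.31 and 5.95 in Rat381, and their differences went from -0.996 ± 0.439 to -0.09 and from -0.88 ± 0.387 to -0.18.

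Markers of vessel walls and coverings were read as 3 lists, with 0 called. Of 10 pericyte and smooth muscle markers 9 were higher, 5 at an unadjusted p under 0.05 (5.06% over all genes), with a median of 0.43. Without the arrays that stand apart the median was 0.20, with 9 of 10 still higher and 0 at that p. Myh11, the smooth muscle myosin, read 7.68, 6.61, 6.92 and 6.44 in PH3 and 6.46, 5.50, 6.30 and 6.46 in Air, a difference of 0.73 ± 0.231, or 0.44. Of 10 meningeal fibroblast markers 8 were higher, 1 at an unadjusted p under 0.05 (median 0.39, or 0.16, and 0.52 at 1 h). Of 11 endothelial markers 9 were higher, 0 at that p, with a median of 0.11, or 0.08.

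Blood cell markers were read as 3 lists, with 0 called. All 6 red cell markers measured were higher, with a median of 0.46, or 0.38 without the arrays that stand apart, and 0 had an unadjusted p under 0.05. Alas2, the heme enzyme of red cell precursors, read 5.79, 5.84, 6.07 and 6.48 in PH3 and 5.49, 5.14, 5.89 and 5.30 in Air, a difference of 0.59 ± 0.374, or 0.65. S100a9, a calcium-binding protein of neutrophils, read 6.80, 6.19, 6.86 and 6.96 in PH3 and 6.06, 4.37, 5.83 and 5.66 in Air. The groups did not overlap, and the difference of 1.22 ± 0.926, or 1.16, was close in size to its SE. That SE takes its spread from all 8 olfactory bulb groups, and at 6 h the S100a9 values spanned 0.77 in PH3 and 1.69 in Air. Of 9 neutrophil markers 7 were higher and 2 lower, with a median of 0.32, or 0.16, and 1 in each direction had an unadjusted p under 0.05. Over all genes 5.06% were higher and 5.86% lower at such a p. Groups did not overlap for 3 of the 9 neutrophil markers, beside 3.25% of all genes. Of those 3 markers, Csf3r, the receptor of the neutrophil growth factor G-CSF, had its PH3 rats below the Air rats. Csf3r read 3.41, 3.42, 3.43 and 3.61 in PH3 and 3.78, 3.64, 3.69 and 4.10 in Air, a difference of -0.34 ± 0.146, or -0.19. The 8 T and B cell markers had 4 higher and 4 lower, with a median of 0.00, or -0.07. The 12 microglia and macrophage markers had a median of -0.20, or 0.03.

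The effect at 6 h was set against those at 1, 3 and 24 h, which have rats and controls of their own. The F test of a difference between the 4 times called 0 probe sets in limma, with a smallest adjusted p of 0.702, and 2184 (7.04%) had an unadjusted p under 0.05, or 1456 without the arrays that stand apart. Tnfrsf1a differed by 0.16 ± 0.101 at 1 h, -0.16 ± 0.107 at 3 h and -0.11 ± 0.107 at 24 h, beside 0.48 at 6 h. Sat1 differed by 0.32 ± 0.112, 0.19 ± 0.118 and 0.04 ± 0.118 at those times. Sigirr lay between -0.03 and 0.16 at all 3. None of these differences between times passed the adjusted test.

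Other genes had their larger values at other times. Angptl4, a secreted inhibitor of lipoprotein lipase, had 1 of the 4 smallest p-values of the F test; its effect was 1.17 at 1 h, 0.81 at 3 h, 0.04 at 6 h and -0.46 at 24 h. Fkbp5 had 0.94 ± 0.289 at 3 h. Vip had 1.01 at 3 h against -1.27 at 6 h, and Fosb and Per1 were lower at 24 h as well, by values of -0.72 and -0.68. One unnamed probe set was called at 1 h, with an effect of 0.34 there and -0.05 at 6 h.

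**Figure D5:**
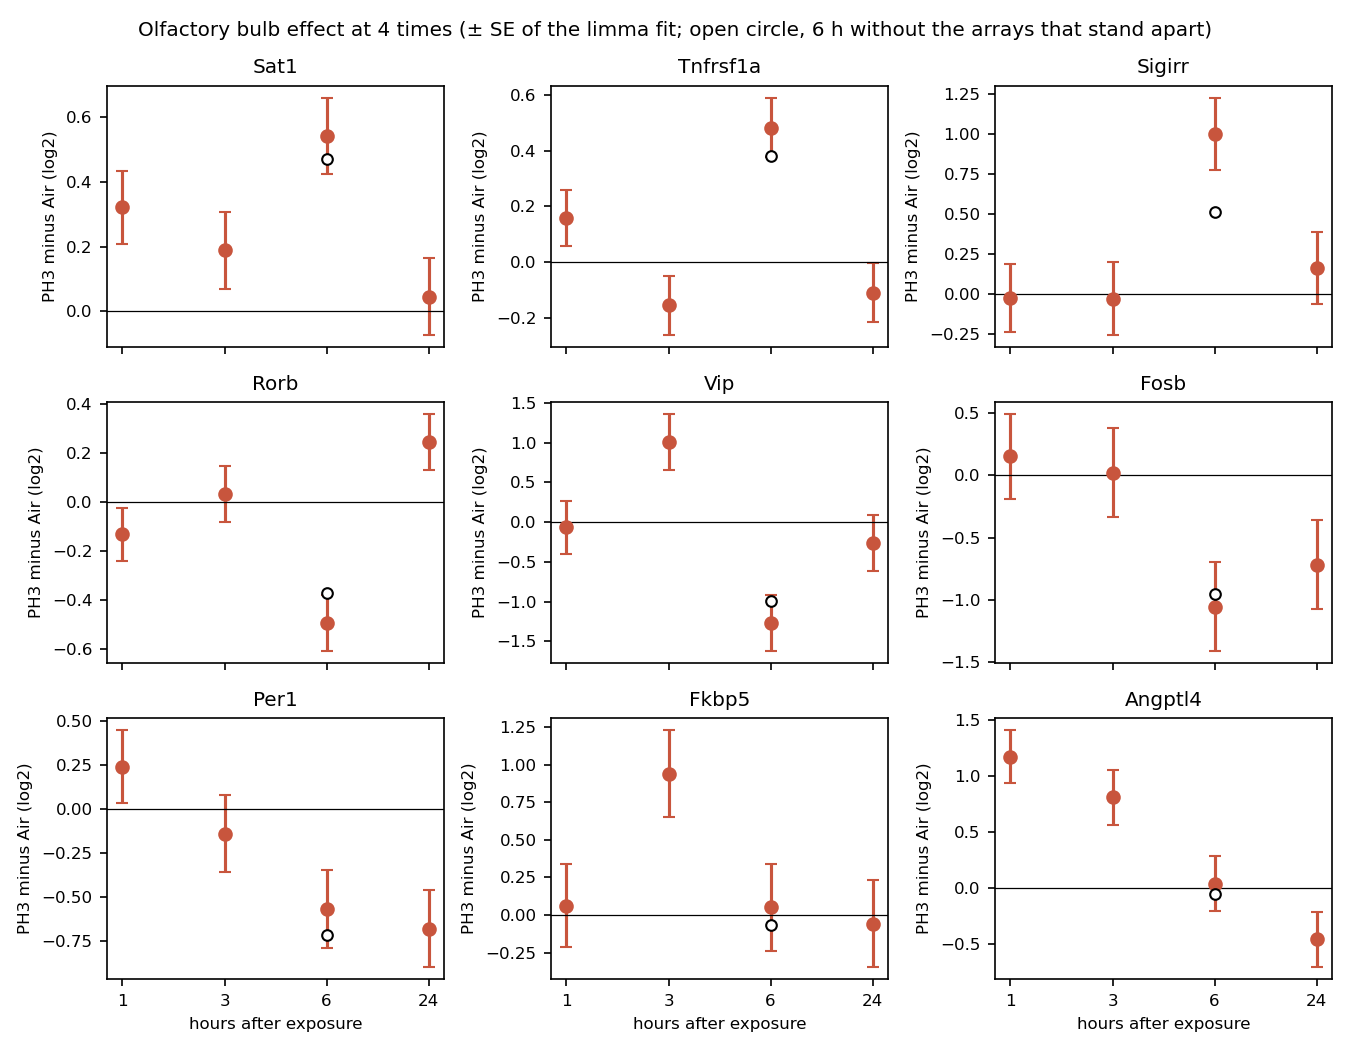
Log2 difference, PH3 minus Air, with the SE of the limma fit (y axis) of 9 genes in the olfactory bulb at 1, 3, 6 and 24 h (x axis, not to scale); open circles give 6 h without the arrays that stand apart. Sat1, Tnfrsf1a and Sigirr have their highest value at 6 h, Fkbp5 has 0.94 at 3 h and Angptl4 has 1.17 at 1 h.

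Brain stem is the other nervous tissue of the series, and 3 PH3 and 3 Air rats of 6 h gave both tissues. The test of a difference between the effects of the 2 tissues called 0 probe sets in limma, with a smallest adjusted p of 0.225, and 1350 (4.35%) had an unadjusted p under 0.05, or 982 without the arrays that stand apart. In brain stem at 6 h that was PH3 Rat381, with a liver list mean of 6.53 against a median of 3.82. Creg1 differed by -0.13 ± 0.0923 in brain stem, beside 0.44 in olfactory bulb. Cep41, a centrosome protein, differed by -0.43 ± 0.123 in olfactory bulb and 0.07 ± 0.118 in brain stem, and Mrnip, a DNA repair factor, by -0.31 ± 0.102 and 0.30 ± 0.116. Mmrn2, a matrix protein of endothelium, differed by 0.29 ± 0.135 and -0.28 ± 0.158. The adjusted p of all 4 differences between tissues was 0.907.

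Some of the genes named for their place in earlier brain stem results were set side by side. The other genes so named, Fkbp5 among them, differed by -0.08 to 0.14 in olfactory bulb. Sgk1 differed by -0.41 in olfactory bulb and -0.71 in brain stem, Tmem252 by -0.47 and -0.59, Pdk4 by 0.11 and -0.52, and Tnfrsf11b, the decoy receptor osteoprotegerin, by 0.55 and 0.30. The dimmer probe set of Pdk4 differed by -0.12 in olfactory bulb. Tnfrsf11b read 6.84, 7.14, 7.14 and 7.75 in the PH3 olfactory bulbs and 6.79, 6.47, 6.41 and 7.001 in the Air ones, where Rat381 lay within the Air range. Its difference was 0.89 without the arrays that stand apart.

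RNA quality was read as the 3′ minus 5′ difference of the Gapdh and beta-actin control sets, which grows as RNA breaks down. It was 0.396 ± 0.107 (SD, n = 4) in PH3 and 0.319 ± 0.0809 (SD, n = 4) in Air. The difference of 0.0764 had p = 0.229 in a two-sided exact permutation test, for which 0.0286 is the smallest p that 4 against 4 rats allow. Rat381 and Rat391 had the higher PH3 values, 0.506 and 0.469. With this index as a covariate limma called 0 probe sets and 1659 had an unadjusted p under 0.05; the part of RNA quality in the other results was not tested.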

How the data were processed

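Rat 3′ expression arrays were analysed for the olfactory bulb at 6 h, 4 PH3 and 4 Air, with the other olfactory bulb arrays and the brain stem arrays of 6 h for comparison. Per the submitters' processing notes, the authors used Partek and RMA, and the deposited values are log2 intensities. Tool versions, and which arrays were normalized together, are not given in the sources used. The values cover 31139 probe sets; 97 array controls were left out, with no filter on dim sets. The platform annotation names 1 gene for 19063 probe sets, several for 572 and none for 11407, and a gene is its brightest probe set.

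In R 4.3.3, limma 3.58.1 fitted all 33 olfactory bulb arrays with 1 coefficient per exposure and time, so 8 groups shared the spread. Tests were two-sided with Benjamini-Hochberg adjustment over 31042 probe sets, called at an adjusted p under 0.05; every adjusted p and SE in the text is from these fits. The other tests were limma's F test between the times and its test of the difference between tissues. The labels give each array of the tissue a rat number of its own, so p-values measure the spread between rats, and the number of arrays limits the precision. Rats do not pair PH3 with Air; they pair olfactory bulb with brain stem, as 6 rats of 6 h gave both, with a consensus correlation of 0.0824 within a rat. Genes were named by rule: non-overlapping genes with the smallest p or largest difference, the 2 smallest p of each list, genes earlier results name in brain stem, and the smallest p for time and tissue; a few marker and liver, nasal or bone genes were named after their values were seen. The members, the 41 lists and the rule were chosen with earlier results of these data known, and the liver and bone lists after the arrays were seen. On simulated data, each of the 31042 probe sets had independent noise with its spread pooled over the groups. There limma recovered 58.2% of 67 probe sets changed by 0.5 log2 units, 94% of 67 changed by 1 and 97% of 66 changed by 2. The simulation held no transcripts of other tissues that move together on an array, so these shares do not give the power of the real comparison. Alternatives were other samples in the fit, normalizations, weights, covariates, blocks and left-out rats. Figures were drawn with matplotlib 3.10.9.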

Additional observations from a re-analysis of the deposited data

Results flagged for a closer look

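In 162 groups of 4 rats (74 genes named in the text and 7 array summaries, in PH3 and in Air), 21 (13%) had 1 rat whose gap to the nearest other rat took more of the group's range than Dixon's critical value for 4 values, where chance gives about 1 in 20 for independent groups. The genes were chosen partly for large differences and some lists after these arrays were seen, and all groups share the same 8 arrays, so the share was not tested against chance. In 12 of the 21 that rat was PH3 Rat381, the rat with nasal and bone transcripts. The share of the range taken by the gap was 0.94 for its olfactory sensory neuron list, 0.87 for its bone list and 0.846 for Omp. It was 0.931 for Hspb1, 0.885 for Lox, 0.866 for Hmox1, 0.853 for Mgp, 0.844 for Cyp3a9 and 0.846 for Cox6a2, which were all higher in Rat381 than in the other PH3 rats. Klhl4 (0.881), Mrnip (0.871) and Nmb (0.855) were lower in Rat381 than in the others.

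For the liver list the PH3 rat apart was Rat391 (0.986, a mean of 11.84 against 3.37 to 3.49 in the other PH3 rats), and the Air rat apart was Rat526 (0.896). PH3 Rat387 was above the other PH3 rats for Fosl2 (0.834), Gabra2 (0.854) and Fezf2 (0.921), towards the Air rats, and PH3 Rat522 was above them for Csf3r (0.893). In Air, Klhl4 was low in Rat382 (0.831), Nmb was high in Rat388 (0.855), and Angptl4 was low in Rat526 (0.919), at 6.60 against 7.25 to 7.31.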

How the results depend on the processing

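The count of 0 called probe sets at 6 h held in limma under every alternative run except these. With the 17 Air arrays of all times as controls 233 were called, 106 higher and 127 lower, 10 of them genes of the lists. When the arrays that stand apart were left out as well, 0 were called, and 1788 had an unadjusted p under 0.05. Leaving out 1 rat at a time gave 0 to 8 called, with 0 to 1 genes of the lists. The 8 came without PH3 Rat387, and the named ones were Osgin1, Tango2, Iqgap2, Sigirr, Sat1, Rgcc and Dcxr, given after their values were seen. The time and tissue tests called 0 under every alternative run. With the rat as a replicate block the tissue test called 0, and 1591 probe sets had an unadjusted p under 0.05. The block changed no other call, and no paired analysis was possible for PH3 against Air because they share no rat. The 8 arrays alone gave 1549 probe sets at an unadjusted p under 0.05, and liver and nasal list means as covariates gave 1387. That covariate fit and those without the arrays that stand apart were chosen after seeing the data.

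Of 74 named genes, 65 kept their sign under all 21 alternatives. Without the arrays that stand apart Dnajc3 had -0.00489, Fkbp5 -0.0699 and Angptl4 -0.0515. With Air of all times and without those arrays, Hspb1 had -0.0244, Cox6a2 -0.0766, Dnajc3 -0.0413, Gria1 0.0351, Nmb 0.087, Syt13 0.289 and Chrm1 0.242. Leaving out 1 rat gave Fkbp5 from -0.0719 to 0.154, Angptl4 from -0.128 to 0.169 and Cox6a2 from -0.00613 to 0.356. Without Rat522 and Rat526 Fkbp5 had -0.0774 and Angptl4 -0.108, and with the covariates Fkbp5 had -0.0185. The cause of these reversals was not tested. Of 946 list medians under alternatives, 72 moved by more than the SD between rats.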

Other observations

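The 10 astrocyte markers had a median difference of -0.05 with all arrays, 4 of them higher, and 0.12 without the arrays that stand apart, 10 of 10 higher. Fgfr3, a growth factor receptor of astrocytes, read 8.69, 8.202, 7.74 and 8.17 in PH3 Rat381, Rat387, Rat391 and Rat522 and 7.89, 7.87, 7.73 and 7.996 in Air Rat382, Rat388, Rat394 and Rat526, a difference of 0.33 ± 0.121, or 0.36. The 7 ensheathing cell markers went from a median of -0.08 to 0.07. Among them Sox10, a transcription factor of ensheathing and myelinating glia, differed by 0.24 ± 0.162, or 0.46. Cd24, a surface protein of migrating neuroblasts, read 7.64, 7.45, 7.35 and 7.35 in PH3 and 7.61, 8.21, 7.81 and 7.62 in Air, a difference of -0.36 ± 0.18, or -0.48. None of these passed the adjusted test.

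The kidney arrays of the same rats were looked at for Gdf15, a stress cytokine picked after its values were seen. The PH3 rats Rat381, Rat387 and Rat391 read 7.86, 7.57 and 8.35 there, and the Air rats Rat382, Rat388 and Rat394 read 6.55, 6.85 and 6.59. These 3 PH3 rats lay above the 3 Air rats in that tissue. PH3 Rat375 and Air Rat377, which gave kidney but no olfactory bulb, read 7.75 and 6.38. The kidney array of Rat387 had a liver list mean of 11.04, against a kidney median of 5.50. The share of all kidney genes that separate these rats was not counted. Whether Gdf15 separates them beyond chance was therefore not tested.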
